A study of Mus musculus with 8 samples.

Results

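The genes described here are the liver X receptors (LXRs) Nr1h3 and Nr1h2, the oxysterol enzyme Ch25h, the cholesterol efflux transporters Abca1 and Abcg1, the LDL receptor regulator Mylip, the lipid droplet proteins Plin2 and Hilpda, and the nuclear receptor Pparg. These 9 genes were chosen by name for their place in sterol and lipid droplet biology, with earlier results of these data known. Each was found by Ensembl identifier, through GENCODE vM21 symbols, among the 52636 genes of the count table. All 9 passed the filter on low counts that left 13847 genes to test. After LPS, Ch25h, Hilpda, Plin2 and Abca1 were higher, Pparg was lower, and Abcg1, Nr1h3, Nr1h2 and Mylip did not pass the test unless a library was left out, the libraries were paired, or the tool or the scaling was changed.

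The RNA came from primary microglia of wild-type mice, C57BL/6 by the labels and C57BL/6N pups by the published methods. The cells were grown on astrocytes in mixed glial cultures from neonatal brains and were shaken off. They were then kept with the growth factor CSF-1, which both groups shared. One group received 5 µg/ml LPS, a bacterial lipopolysaccharide sensed by Toll-like receptors, and the other received vehicle, each for 24 h, with 4 libraries per group. Neonatal microglia kept in serum and CSF-1 are a culture model and not the resting cell of the adult brain, and whether a library came from 1 animal or from pooled pups was not given in the sources used here. The libraries are labelled as biological replicates, without saying what each replicate started from.

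LXRs are nuclear receptors that bind oxysterols. Together with a retinoid X receptor they switch on genes that move cholesterol out of the cell and limit its uptake. Ch25h makes 25-hydroxycholesterol, an oxysterol released by macrophages and microglia during inflammation. Cholesterol and fatty acids that are not exported can be stored as esters in lipid droplets, which are coated by perilipins and emptied by lipases, and droplet-laden microglia are known from aged and inflamed brain.

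The deposited values were raw counts, 20071921 to 30604447 per library. Levels are given as CPM, the count scaled to a common library size, after TMM scaling, which assumes that most genes do not change and centres the libraries on them. The TMM factors did not overlap between the groups, at 1.21 to 1.32 for vehicle and 0.701 to 0.833 for LPS, so the choice of scaling bears on every small difference. The median log2 fold change of all tested genes was -0.11 with TMM, -0.27 with upper quartile normalization and -0.79 with library totals alone, shifts of -0.16 and -0.68. LPS replicate 3 stood apart. Its counts differed from those of the other LPS libraries by a chi-square of 108 to 155 per degree of freedom, against 6.98 to 63.6 among the other 3 and 11.01 to 67.0 among the vehicle libraries. Microglial markers were present in both groups, although their summed level was 10168 to 11354 CPM in vehicle and 3051 to 3460 CPM in LPS, with 8 of 10 markers lower, Itgam higher and Aif1 at 126 ± 41 and 126 ± 24 CPM (SD, n = 4 each). Markers of other cells moved as well. The 9 endothelial markers summed to 37.1 to 83.4 CPM in vehicle and 196 to 272 CPM in LPS, with Flt1, Pecam1 and Cdh5 higher and the defining markers Cldn5 and Emcn without a count in any library. The 10 astrocyte markers summed to 21.1 to 52.5 CPM in vehicle and 42.5 to 125.0 CPM in LPS, with Gja1 higher and Gfap, Aqp4 and Aldh1l1 lower. The sums were 97.5 to 152 and 23.2 to 30.3 CPM for the 10 oligodendrocyte lineage markers, 3.76 to 7.56 and 7.57 to 24.999 CPM for the 8 fibroblast and mural markers, and 8.15 to 23.6 and 3.12 to 11.5 CPM for the 9 neuronal markers. Of the fibroblast and mural markers 3 were tested, and only Dcn was called, with means of 0.136 CPM in vehicle and 8.90 CPM in LPS. Pdgfrb (log2 fold change -1.03) and Acta2 (0.11) were not called. Among those not tested, Col1a1, Col1a2 and Col3a1 had lower means in LPS and Lum a higher one. The part of these cells in the results was not tested, and in bulk RNA fewer cells of a type and less RNA per cell cannot be told apart.

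A gene was called when its adjusted p in edgeR was under 0.05. LPS moved most of the transcriptome, so 64.1% of all tested genes were called, 30.3% higher and 33.8% lower. Against that background, 5 of the 9 genes were called, 4 higher and 1 lower. For 5 of the 9 the vehicle and LPS values did not overlap, as was so for 60.2% of all tested genes. Both shares among the 9 genes are close to those of all genes and are no result about them.

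**Figure D1:**
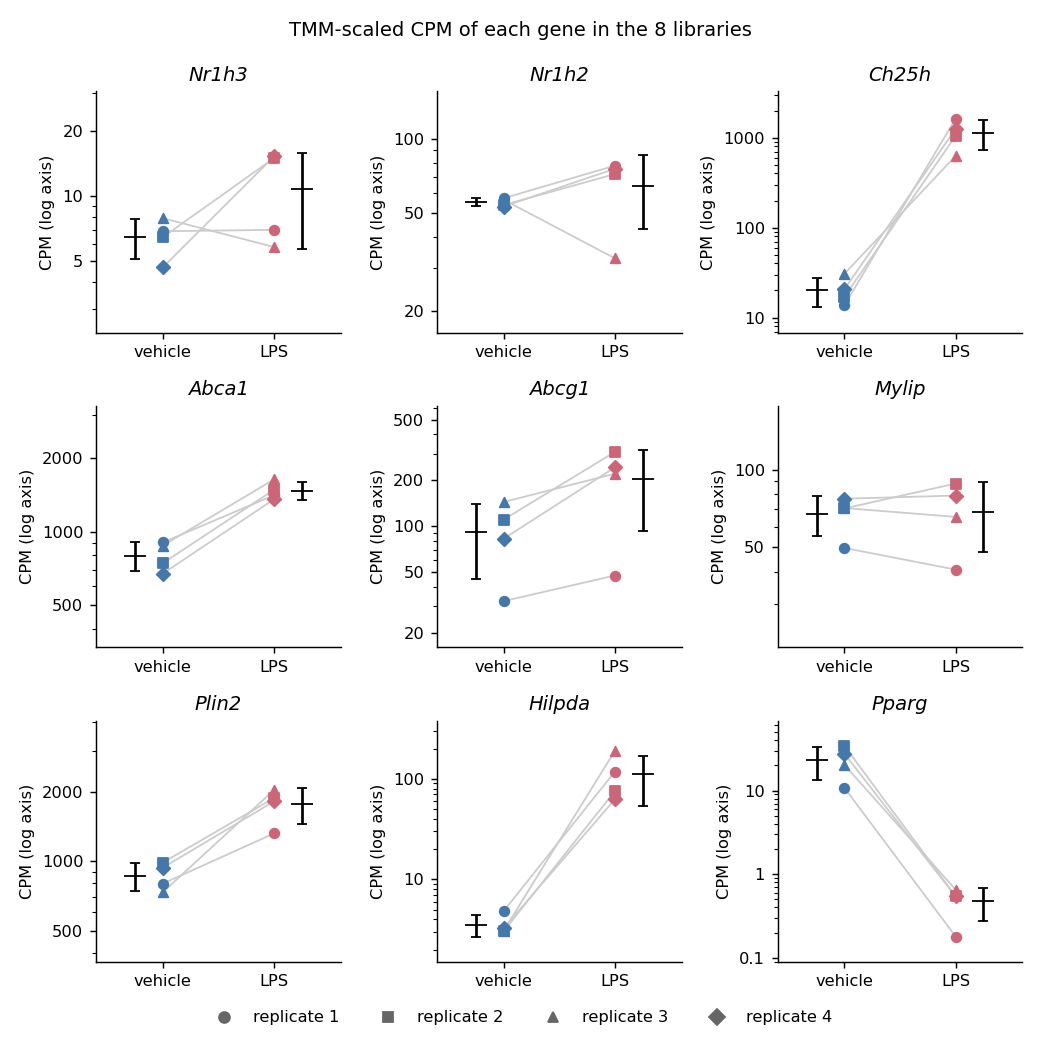
TMM-scaled CPM (log axis) of the 9 genes in the 4 vehicle (blue) and 4 LPS (red) libraries, with grey lines joining libraries of the same replicate number and black bars for the mean and SD. Ch25h, Abca1, Plin2 and Hilpda lie higher in each LPS library than in any vehicle library, Pparg lies lower, and the other 4 genes overlap.

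Promoter windows from RefSeq, from 250 bases before to 50 bases after each transcript start on GRCm38.p6, were found for 8 of the 9 genes, in 12 windows. Abcg1 had none. They were searched on both strands for the letters of motifs that nuclear receptors and inflammatory or hypoxic factors are known to bind. The LXR motif DR4, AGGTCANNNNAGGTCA with up to 2 mismatches, was in 0 of the 12 windows and in 3.02% of all 32851 windows. The motif DR1, AGGTCANAGGTCA with up to 2 mismatches, the form bound by PPARs, was in the window of Plin2 and in 3.86% of all windows. The hypoxia response core ACGTG was in windows of Abca1, Hilpda and Plin2 and in 19.6% of all windows, and in Plin2 it spanned the transcript start. GGACTTTCC with up to 1 mismatch, a kappaB form, was in the window of Nr1h2 and in 7.64% of all windows. GAAANNGAA, the core of an interferon response element, was in 0 of the 12 windows (8.56% of all), and so was the sterol response element TCACNCCAC (1.24% of all). A match says only that the letters are there. An absence covers only these windows and this limit on mismatches. With DR4 in 3.02% of all windows, 0 of 12 is no result about these genes. Stretches of 3 windows are shown on the strand of the gene because these genes were higher after LPS and hold matches before a RefSeq start. Capitals mark the match, which was DR1 in Plin2 and the ACGTG core in the other two, where the palindrome in Abca1 holds it on both strands.
Abca1, chr4:53159977-53160102, minus strand: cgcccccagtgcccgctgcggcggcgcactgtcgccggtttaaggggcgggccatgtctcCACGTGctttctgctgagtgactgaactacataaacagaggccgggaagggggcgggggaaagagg
Plin2, chr4:86670212-86670309, minus strand: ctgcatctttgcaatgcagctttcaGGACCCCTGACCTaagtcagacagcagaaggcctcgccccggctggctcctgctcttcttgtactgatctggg
Hilpda, chr6:29272571-29272599, plus strand: gatggccagcggACGTGccccagggcgag

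Nr1h3 (LXR alpha, ENSMUSG00000002108, chr2:91184061-91202834, minus strand) is the form enriched in macrophages, liver and fat. Its level was 6.90, 6.47, 7.93 and 4.69 CPM in vehicle replicates 1 to 4 and 7.00, 15.03, 5.83 and 15.3 CPM in LPS replicates 1 to 4. LPS replicates 2 and 4 stood above all vehicle libraries and LPS replicates 1 and 3 lay among them, so the groups overlapped. The log2 fold change of 0.73 (SE 0.33, adjusted p = 0.0762) did not pass the test. It passed without LPS replicate 1 (0.90, adjusted p = 0.0403), without LPS replicate 3 (0.95, adjusted p = 0.0184) and with DESeq2 (0.78, adjusted p = 0.0482). The 95% interval, from -0.0077 to 1.47, spans both 0 and values above 1, and over all alternatives the adjusted p ranged from 0.0184 to 0.836. A further gene, Gm13783, overlaps 1.35% of its exonic bases and had at most 4 counts in a library.

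Nr1h2 (LXR beta, ENSMUSG00000060601, chr7:44549616-44553951, minus strand) is the form found in most cells. Its vehicle level varied little, at 57.3, 53.8, 56.6 and 53.1 CPM. In LPS it was 77.7, 71.9, 32.7 and 75.5 CPM. LPS replicates 1, 2 and 4 were above every vehicle library, and LPS replicate 3 was below every one. The log2 fold change was 0.22 (SE 0.23, adjusted p = 0.421, 95% interval -0.30 to 0.75). Without LPS replicate 3 it was 0.45 with an adjusted p of 0.000489, and with library totals alone its sign turned (-0.43, adjusted p = 0.177). Over all alternatives its adjusted p ranged from 0.000489 to 0.786.

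Per kb of merged exon, which allows levels of different genes to be compared, Nr1h2 stood 6.47 times higher than Nr1h3 in vehicle and 4.63 times higher in LPS, as geometric means of the ratio within each library. The log2 ratio of Nr1h3 to Nr1h2 was -2.64, -2.64, -2.42 and -3.08 in vehicle and -3.05, -1.84, -2.07 and -1.89 in LPS. LPS replicate 1 fell within the vehicle range and the other 3 above it. The mean ratio was higher by 0.48 on the log2 scale in LPS, with an exact permutation p of 0.171 (two-sided, 70 divisions, adjusted p = 0.257 over 3 ratios), which did not pass. Without LPS replicate 1 the difference was 0.76 (exact permutation, adjusted p = 0.0429). It passed there only because the ratio of Hilpda to Plin2 also reached the smallest exact p.

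Ch25h (ENSMUSG00000050370, chr19:34473778-34475164, minus strand, 1 exon) had the largest log2 fold change of the 9 genes with TMM. It was at 13.7, 17.0, 30.6 and 20.6 CPM in vehicle and at 1630.0, 1046, 627 and 1252 CPM in LPS. Every LPS library was far above every vehicle library, and replicate 3, which had the highest vehicle level, had the lowest LPS level. The mean rose from 20.5 ± 7.3 to 1139 ± 418 CPM (SD, n = 4 each), a 55.7-fold difference with a log2 fold change of 5.80 (SE 0.38, adjusted p = 1.72e-06). Within replicate numbers the fold was 119, 61.5, 20.5 and 60.8. Of its exonic bases, 11.5% are also in an exon of Gm26902 on the opposite strand, and whether reads were counted by strand was not given in the sources used here. Gm26902 had 14 to 37 counts in vehicle and 250 to 478 in LPS, against 390 to 964 and 13442 to 27237 for Ch25h.

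Abca1 (ENSMUSG00000015243, chr4:53030787-53159895, minus strand) passes cholesterol and phospholipid to lipid-poor apolipoproteins. Its level was 904, 743, 877 and 673 CPM in vehicle, and 1412, 1486, 1639 and 1359 CPM in LPS. The groups did not overlap, and the spread within each was narrow. The mean rose 1.84-fold, from 799 ± 110 to 1474 ± 121 CPM (SD, n = 4 each), with a log2 fold change of 0.88 (SE 0.14, adjusted p = 0.000419). The call was lost under 2 alternatives. One asked for an absolute log2 fold change of at least 1, which this change does not reach. With library totals alone the log2 fold change was 0.21 (adjusted p = 0.119, the highest over the fits), beside a median of -0.79 for all tested genes.

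Abcg1 (ENSMUSG00000024030, chr17:31057675-31117988, plus strand) hands cholesterol to formed HDL particles. It was at 32.3, 111, 144 and 82.9 CPM in vehicle and 47.6, 307, 221 and 243 CPM in LPS. LPS replicates 2, 3 and 4 were above all vehicle libraries, and replicate 1 was the lowest library of its group in both groups. The log2 fold change was 1.15 (SE 0.55, adjusted p = 0.0938) and was not called. Each LPS library was nonetheless above the vehicle library of its own number, 1.47-, 2.78-, 1.53- and 2.94-fold. The labels do not say that libraries of the same number belong together, so this pairing is not settled. With the replicate number as a block the log2 fold change was 1.05 (SE 0.20, adjusted p = 0.00213) and passed, which brought the called genes to 6 of 9, against 65.3% of all tested genes in that fit. Without LPS replicate 1, and with no block, it was 1.48 (adjusted p = 0.0122), and over all alternatives the adjusted p ranged from 0.00213 to 0.446. The log2 ratio of Abca1 to Abcg1 per kb was 4.30, 2.24, 2.10 and 2.52 in vehicle and 4.38, 1.77, 2.38 and 1.98 in LPS, and the difference between the means of -0.16 had an exact permutation p of 0.657 (adjusted p = 0.657). Its sign turned without vehicle replicate 1 (0.34), LPS replicate 2 (0.13) or LPS replicate 4 (0.06). The libraries with the highest ratio were those of replicate 1 in both groups.

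Mylip (ENSMUSG00000038175, chr13:45389742-45412022, plus strand), also called Idol, is an LXR-induced ubiquitin ligase that marks the LDL receptor for degradation. Its level was 49.6, 70.6, 70.9 and 77.0 CPM in vehicle and 40.9, 88.2, 65.5 and 79.3 CPM in LPS. The groups overlapped over most of their range, and replicate 1 was again the lowest in both. The log2 fold change was 0.03 (SE 0.23, adjusted p = 0.913), with a 95% interval from -0.48 to 0.54, and its sign turned with upper quartile normalization (-0.13) and with library totals alone (-0.65, adjusted p = 0.0313, the lowest over the alternatives). Thus of the 3 LXR targets among the 9 genes, Abca1 passed the test and Abcg1 passed with the block or without LPS replicate 1. Mylip had no steady sign, and also turned with TMM kept, as with the replicate block (-0.0065).

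Plin2 (ENSMUSG00000028494, chr4:86648386-86670060, minus strand), the perilipin that coats lipid droplets in most cells, was at 798, 985, 732 and 936 CPM in vehicle. In LPS it was at 1319, 1877, 2035 and 1817 CPM. All LPS libraries were above all vehicle libraries, with LPS replicate 1 nearest to them. The mean rose 2.04-fold, from 863 ± 118 to 1762 ± 310 CPM (SD, n = 4 each), with a log2 fold change of 1.03 (SE 0.17, adjusted p = 0.000555). As for Abca1, the call was lost with library totals alone (0.34, adjusted p = 0.0775, the highest over the alternatives). Of its 50-base transcript windows, 2.57% are shared with the pseudogene Gm12551, which had 4 to 16 counts in any library, against 22035 to 43642 for Plin2. The DR1 match shown above lies 225 to 213 bases before its transcript start.

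Hilpda (ENSMUSG00000043421, chr6:29272488-29275446, plus strand) is a small hypoxia-inducible protein that inhibits adipose triglyceride lipase at the droplet. It was scarce in vehicle, at 4.83, 3.04, 3.08 and 3.27 CPM, and reached 118, 75.4, 189 and 62.5 CPM in LPS. Every LPS library was at least an order of magnitude above every vehicle library, and LPS replicate 3 was the highest. The mean rose 31.3-fold, from 3.55 ± 0.86 to 111 ± 57 CPM (SD, n = 4 each), with a log2 fold change of 4.97 (SE 0.38, adjusted p = 4.36e-06). Without LPS replicate 3 it was 4.59. The ACGTG core shown above lies 43 to 39 bases before the later of its 2 RefSeq starts. Counted from the earlier start it is at bases 96 to 100 of the transcribed region, the stretch around it overlaps an annotated exon, and no ACGTG was found in the window of the earlier start.

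Both droplet genes rose, and their ratio was set against each other within each library. The log2 ratio of Hilpda to Plin2 per kb was -5.69, -6.66, -6.22 and -6.48 in vehicle and -1.81, -2.97, -1.75 and -3.19 in LPS, with no overlap. In vehicle Plin2 was 76.8 times the level of Hilpda, and in LPS 5.39 times. The mean ratio was higher by 3.83 on the log2 scale in LPS, or 14.2-fold, higher in 4 of 4 numbered pairs. The exact permutation p of 0.0286 is the smallest that 70 divisions allow, and it did not pass after adjustment over the 3 ratios (adjusted p = 0.0857). A ratio that alone reaches this p cannot pass that adjustment, so the failure says nothing about this ratio.

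**Figure D2:**
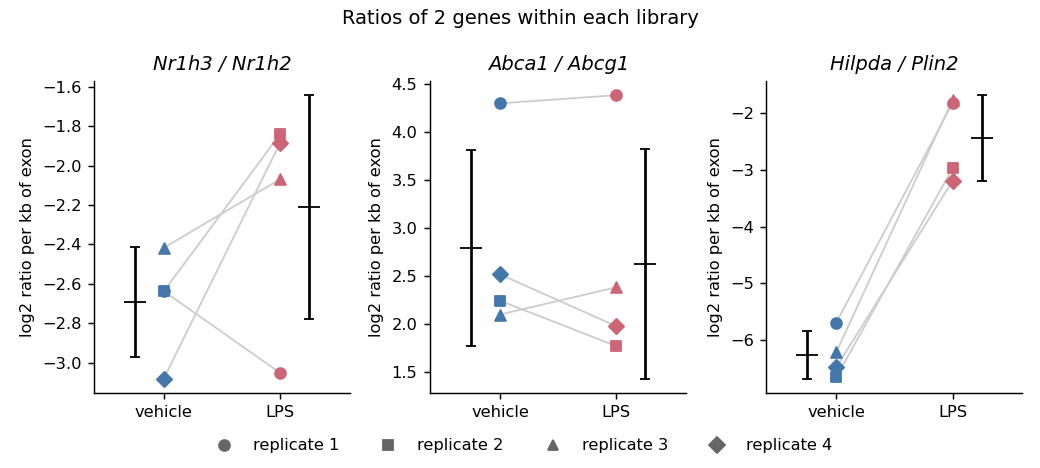
Log2 ratio of 2 genes within each library, per kb of merged exon, for Nr1h3 to Nr1h2, Abca1 to Abcg1, and Hilpda to Plin2, in vehicle (blue) and LPS (red) libraries with grey lines joining replicate numbers and black bars for the mean and SD. The scaling of a library cancels in such a ratio, and in the ratio of Hilpda to Plin2 alone the groups do not overlap.

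Pparg (ENSMUSG00000000440, chr6:115360951-115490399, plus strand), a fatty acid-activated receptor that drives fat storage genes and restrains inflammatory ones in macrophages, fell. Its vehicle levels were 10.8, 34.3, 20.3 and 27.6 CPM. In LPS they were 0.180, 0.545, 0.653 and 0.541 CPM, from 3, 10, 14 and 10 counts, so it passed the filter through the vehicle libraries. Replicate 1 was the lowest in both groups. The mean fell from 23.3 ± 10.1 to 0.480 ± 0.207 CPM (SD, n = 4 each), 48.5-fold lower, with a log2 fold change of -5.56 (SE 0.45, adjusted p = 5.66e-06). It was called with library totals alone as well (-6.26).

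**Figure D3:**
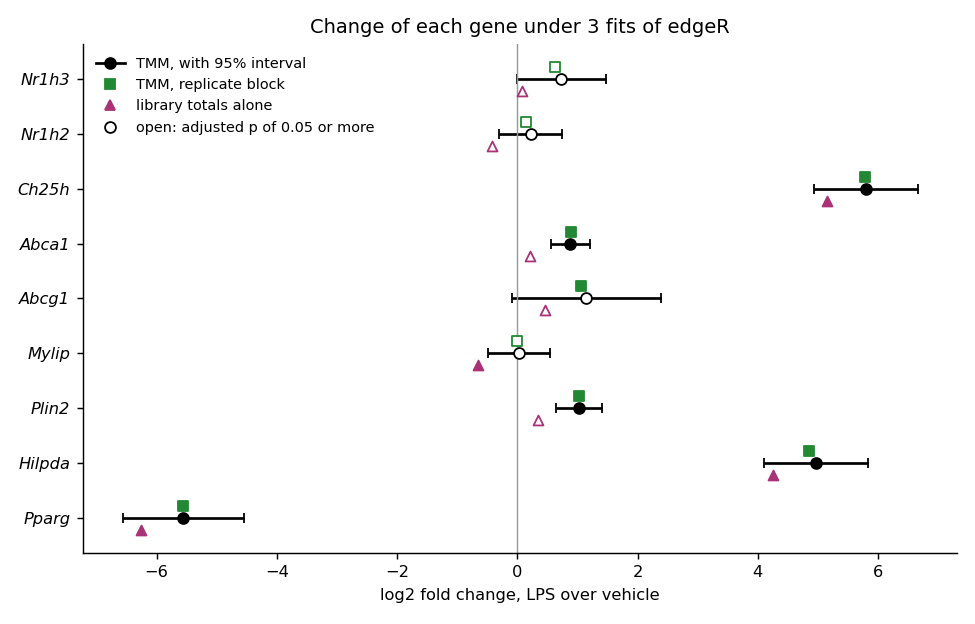
Log2 fold change of LPS over vehicle for the 9 genes from 3 edgeR fits, namely TMM with its 95% interval (black), TMM with the replicate number as a block (green) and library totals alone (purple), with filled symbols for an adjusted p under 0.05. Ch25h, Hilpda and Pparg lie beyond 4 on either side of 0 in all 3 fits, whereas Abca1 and Plin2 lose their call with library totals alone and Abcg1 gains one with the block.

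The order of the levels changed with the treatment. Per kb of merged exon, vehicle libraries had Plin2 at 246 ± 33 CPM, Abca1 at 77.1 ± 10.6 and Mylip at 20.7 ± 3.7, each step without overlap of the libraries. Below these came Nr1h2 at 16.5 ± 0.6, Ch25h at 14.8 ± 5.3, Abcg1 at 12.7 ± 6.5, Pparg at 7.88 ± 3.41, Hilpda at 3.22 ± 0.78 and Nr1h3 at 2.58 ± 0.54 (SD, n = 4 each), and each of these overlapped with its neighbours. In LPS, Ch25h led at 821 ± 302 CPM per kb and overlapped with Plin2 at 502 ± 88. Abca1 at 142 ± 12 and Hilpda at 101 ± 52 followed and overlapped with each other, and so did Abcg1 at 28.1 ± 15.2, Mylip at 21.2 ± 6.4 and Nr1h2 at 19.2 ± 6.3, which lay below Hilpda without overlap. Nr1h3 at 4.29 ± 2.02 and Pparg at 0.162 ± 0.070 lay below them without overlap. Ch25h ranked 5 of 9 in vehicle and 1 in LPS, and Pparg ranked 7 in vehicle and 9 in LPS.

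The genes whose log2 CPM ran most closely with each of the 9 over the 8 libraries were sought among 11089 tested genes whose mean log2 CPM was 1 or more. These are descriptions, since the 8 libraries share 1 contrast and any gene that moves with LPS correlates. Hilpda ran with Errfi1 (r = 0.999), Arg1 and Bnip3, and Ch25h with Plod1 (0.997), Liph and Trim56. Pparg ran with Dhx9 (0.998), Mcm6 and Cdk2, Abca1 with Gas7 (0.996), Vmp1 and Clec4a1, and Plin2 with Sltm (0.993), Anp32-ps and Sap130. The genes that were not called had neighbours that follow the differences between replicates, Lypla2 (0.993), Gtpbp6 and Gmip for Nr1h2, Tmem11 (0.976), AI413582 and Tmem115 for Nr1h3, Kctd2 (0.962) and Plpbp for Mylip, and Marcks (0.957), Arfrp1 and Zfp110 for Abcg1.

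Around the 9 genes, 78 further genes of the pathway in 6 lists were examined, of which 61 passed the filter on low counts. Of these, 16 were higher, 23 were lower and the median log2 fold change was -0.19, beside -0.11 for all tested genes. The share called, 63.9%, was close to that of all genes. With library totals alone, which lowered the median of all tested genes by 0.68 and called 14.4% of them higher and 61.1% lower, 9 were higher and 39 lower, and 5 of the 16 turned negative.

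Both tested partners of the receptors were lower. Rxra, the main retinoid X receptor of myeloid cells, fell from 201 ± 24 to 85.2 ± 29.7 CPM (SD, n = 4 each), with a log2 fold change of -1.24 (SE 0.23, adjusted p = 0.00111). Rxrb fell by 0.71 on the log2 scale (SE 0.13, adjusted p = 0.00102). The cofactors Nrip1 (0.97, adjusted p = 0.000131) and Ncor1 (0.48, adjusted p = 0.00593) rose, but with library totals alone they were at 0.30 and -0.21 and neither was called. Of the 7 tested partners and cofactors 2 were higher and 2 lower, with a median of 0.02. Those shares, 28.6% each, were close to the 30.3% and 33.8% of all tested genes. With library totals alone 0 were higher and 4 lower, with a median of -0.65. That scaling called 14.4% of all tested genes higher and 61.1% lower.

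Among the other LXR targets, edgeR called 7 of 11 tested genes lower and 0 higher, with a median log2 fold change of -1.44, beside 33.8% lower and 30.3% higher of all tested genes. This list, like the others, was drawn up with earlier results of these data known, so its counts are a description and no test of the list. At an unadjusted p under 0.05 in edgeR 8 were lower and 0 higher (36.2% of all tested genes were lower), and by DESeq2 also 8 and 0 (25.2% of the 19491 genes it gave an adjusted p were lower). The 7 called lower by edgeR became 5 without vehicle replicate 2, without vehicle replicate 4, or at an adjusted p under 0.01. The count was 6 without vehicle replicate 3, LPS replicate 1 or LPS replicate 3. Without vehicle replicate 4, Lpcat3 was called higher (0.31, adjusted p = 0.0498). Lpl, the lipoprotein lipase, fell from 4434 ± 1158 to 88.3 ± 26.4 CPM (log2 fold change -5.65, adjusted p = 6.49e-07), and Arl4c, a small GTPase, fell by 3.28 on the log2 scale (adjusted p = 4.54e-06). The 4 that did not pass were Srebf1 at -0.09, Lpcat3 at 0.24, Smpdl3a at 0.20 and Pltp at -0.89, and Pltp passed with the block (adjusted p = 0.0189). All 11 were called lower with library totals alone, a scaling that called 61.1% of all tested genes lower and put their median at -0.79. Of the 3 tested oxysterol enzymes 2 were lower and 0 higher by edgeR, by its unadjusted p and by DESeq2. Cyp27a1, which makes 27-hydroxycholesterol, fell from 39.8 ± 8.6 to 0.398 ± 0.157 CPM (log2 fold change -6.66, adjusted p = 1.47e-07), while Ch25h rose. It had 5 to 10 counts in the LPS libraries and passed the filter through the vehicle libraries, with 874 to 1611, and with at least 10 counts asked of every library no lower oxysterol enzyme was left. Cyp39a1 was at -0.19 and was not called.

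Of the 16 tested genes of cholesterol uptake, transport and esterification 6 were higher and 7 lower (37.5% and 43.8%, beside 30.3% and 33.8% of all tested genes), with a median of -0.45. Tspo, an outer mitochondrial membrane protein (log2 fold change 2.51, adjusted p = 8.16e-05), and Gramd1a, which carries cholesterol from the plasma membrane to the endoplasmic reticulum (2.49, adjusted p = 5.25e-05), rose most. Stard4, a soluble sterol carrier (-3.75, adjusted p = 1.72e-06), and Nceh1, a cholesteryl ester hydrolase (-2.74, adjusted p = 3.32e-05), fell most. With the block Vldlr was called (adjusted p = 0.0302) and Osbp was not (adjusted p = 0.0729).

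Of the 15 tested genes of droplet coats, lipases and triglyceride synthesis, 7 were higher and 3 lower (beside 30.3% and 33.8% of all tested genes), with a median of 0.32. Gpat3, which starts triglyceride synthesis, rose from 0.282 ± 0.106 to 15.03 ± 8.97 CPM (log2 fold change 5.71, adjusted p = 6.39e-06). Gpat3 was at 0.173 to 0.426 CPM in vehicle and passed the filter through the LPS libraries. With at least 10 counts asked of every library 5 of this list were higher and 2 lower. At an absolute log2 fold change of at least 1, 4 were higher and 3 lower. The fatty acid ligase Acsl4 rose by 1.35 (adjusted p = 3.36e-05). Acsl3 (-1.82, adjusted p = 6.37e-06) and the seipin gene Bscl2 (-1.50, adjusted p = 2.41e-05), which act in droplet formation, fell. With library totals alone 3 were higher and 7 lower, beside 14.4% and 61.1% of all tested genes. The median turned to -0.33, beside -0.79 for all tested genes. Abhd5 (0.52), Dgat1 (0.56) and Rab18 (0.55), called higher with TMM, turned to -0.17, -0.12 and -0.14 with this scaling and were not called. The lipase that Hilpda inhibits, Pnpla2, was at 65.5 ± 6.4 CPM in vehicle and 56.8 ± 6.0 CPM in LPS (log2 fold change -0.20, adjusted p = 0.129). Among the 9 tested genes of the other PPARs, their coactivators and targets, 1 was higher and 2 were lower, with a median of -0.36. Those shares were 11.1% and 22.2%, beside 30.3% and 33.8% of all tested genes. At an unadjusted p under 0.05 in edgeR 4 were lower, beside 36.2% of all tested genes. With upper quartile normalization 4 were also lower (39.6% of all), and with library totals alone 6 were (61.1% of all). Ppard rose from 22.9 ± 5.7 to 75.6 ± 14.0 CPM (log2 fold change 1.72, adjusted p = 4.41e-05), opposite to Pparg, and was called with library totals alone (1.06). The PPAR target Angptl4 (-5.50, adjusted p = 0.000102) and the coactivator Ppargc1b (-1.84, adjusted p = 0.00153) fell. Angptl4 had 0 to 5 counts in the LPS libraries and passed the filter through vehicle, with 66 to 179. With the block Ppargc1a was called as well (-1.44 without it, adjusted p with it 0.0287).

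**Figure D4:**
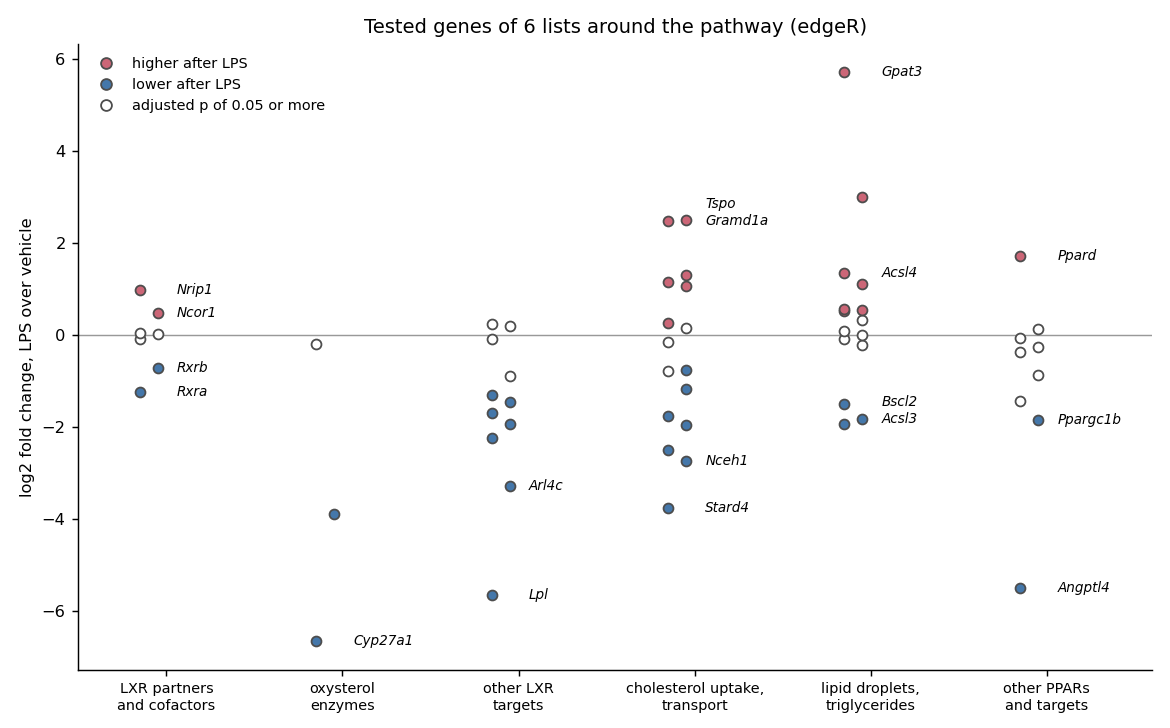
Log2 fold change of LPS over vehicle (TMM, edgeR) of the 61 tested genes in 6 lists around the 9 genes, each point a gene, red for higher, blue for lower and white for an adjusted p of 0.05 or more. The named genes are among the largest changes of each list, from Gpat3 at 5.71 to Cyp27a1 at -6.66, and none of the 11 other LXR targets is red.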

How the data were processed

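The authors sequenced RNA of 4 LPS-treated and 4 vehicle-treated microglial cultures as single-end reads and deposited raw counts per Ensembl gene, without normalization. Reads were aligned to GRCm38 with GSNAP within HTSeqGenie and uniquely aligned reads were counted. The annotation release and the use of strand are not given in the sources used here, and the kit and sequencer in the labels differ from those in the published methods. Totals were 20071921 to 30604447 counts. At this depth the SD between libraries, not counting error, limits most values.

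Counts were tested with edgeR 4.0.16 in R 4.3.3 (TMM, filterByExpr at 10 counts and a total of 15, two-sided quasi-likelihood test, Benjamini-Hochberg over all 13847 tested genes, threshold 0.05). Levels are TMM-scaled CPM, and per kb values divide by the merged exon length of GENCODE vM21. P-values measure only the spread between these libraries. Ratios of 2 genes within a library (0.5 counts added) were tested by exact permutation of 70 divisions. Scripts used Python 3.11.15, numpy 2.4.6, pandas 2.3.3, scipy 1.17.1 and matplotlib 3.10.9, and were tested on simulated data.

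The genes and lists were chosen with earlier results of these data known. Named genes are the 9 genes, Rxra and Rxrb, the 2 largest called rises and falls of each list whose mean log2 CPM was 1 or more, and the 3 genes most correlated with each of the 9. A few genes that this rule gives are not reported here, and other genes named in the text were chosen after their values were seen. Alternatives were DESeq2 1.42.0 (Wald), upper quartile normalization, no filter, at least 10 counts in every library, an adjusted p of 0.01, an absolute log2 fold change of 1, a replicate block, 5 counts added for the ratios, leaving out each library, and, chosen after seeing the data, library totals alone. The departures of same-numbered libraries from their group means correlated at r of 0.363, 0.179, 0.177 and 0.110 over 8382 genes, all above 0.1, the limit used here for giving the fit with a replicate block beside results whose call it changes. The edgeR calls and ratio tests are otherwise without the block. The labels name no batch.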

Additional observations from a re-analysis of the deposited data

Results flagged for a closer look

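Among 24 groups of 4 libraries tested with Dixon's criterion (the gap to the nearest library over the whole range, above the 95% critical value for 4 samples), 2 held a library far from the others, and chance alone flags about 1 in 20. The level of Nr1h2 in LPS replicate 3 was 32.7 CPM, against 71.9 to 77.7 CPM in the other LPS libraries, a gap of 0.87 of the range. The level of Hilpda in vehicle replicate 1 was 4.83 CPM, against 3.04 to 3.27 CPM in the other vehicle libraries, a gap of 0.876 of the range.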

How the results depend on the processing

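The log2 fold changes of Ch25h (5.16 to 6.13), Hilpda (4.26 to 5.17) and Pparg (-6.26 to -5.29) kept their direction and their call under each alternative that gave a value, and Pparg had none when at least 10 counts were asked of every library. Abca1 (0.21 to 0.99) and Plin2 (0.34 to 1.15) kept theirs in 13 of the 14 other fits, the exception being library totals alone, and Abca1 also fell short of an absolute log2 fold change of at least 1, which left 3 of the 9 higher. With library totals alone 2 of the 9 genes were higher and 2 lower (Pparg and Mylip), 9 pathway genes were higher and 39 lower, Nr1h2 was at -0.43 and Mylip at -0.65, because this setting drops the TMM factors. Over all tested genes it called 1988 higher and 8457 lower, against 4191 and 4686. With at least 10 counts in every library 0 of the 9 were lower, since Pparg was not tested, and with an absolute log2 fold change of at least 1 there were 10 higher pathway genes. Mylip, never called with TMM, was at -0.13 with upper quartile normalization, -0.0033 with no filter, -0.029 with at least 10 counts in every library, -0.0065 with the replicate block and between -0.10 and 0.22 when each library was left out. Abcg1 (without LPS replicate 1, and with the block), Nr1h2 (without LPS replicate 3) and Nr1h3 (without LPS replicates 1 or 3, and with DESeq2) were called under the settings named in the report; for the last cases the cause was not tested. When each library was left out, the ratio differences ranged from 0.35 to 0.76 for Nr1h3 to Nr1h2. They ranged from -0.75 to 0.34 for Abca1 to Abcg1 and from 3.61 to 4.09 for Hilpda to Plin2. The last passed without LPS replicate 1 (3.63, exact permutation, adjusted p = 0.0429), where Nr1h3 to Nr1h2 had the same adjusted p. It passed only because both ratios reached the smallest exact p there, since a ratio that reaches it alone cannot pass the adjustment. The block changed the call of no gene of the 9 other than Abcg1, and of no pathway gene other than Pltp, Vldlr, Ppargc1a and Osbp. By paired sign flips no ratio could pass, since 4 pairs allow no exact p below 0.125. The pairing of the numbers is not settled, because the mean correlation of same-numbered libraries, 0.207, was followed by 0.201 for another of the 24 pairings.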
